A study of Homo sapiens with 6 samples.

Results

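The BCL2 family genes described here are the 10 listed pro- and anti-apoptotic members whose symbols were looked up in a gene count table of 58051 genes, and all 10 were found. They comprise 4 BH3-only genes (BBC3, PMAIP1, BCL2L11 and BID), 2 effectors (BAX and BAK1) and 4 anti-apoptotic genes (BCL2, BCL2L1, BCL2L2 and MCL1). PolyA RNA was sequenced from U2OS cells, a human osteosarcoma line, in 3 libraries treated with an siRNA against SURF2 (siSurf2) and 3 treated with a scrambled siRNA (siSCR). Every library came from cells in medium with 10% fetal bovine serum that received siRNA in 2 rounds 49 h apart and were taken at 96 h. The labels name 1 cell line and 1 siRNA treatment per group, give no siRNA sequence and do not state that the replicates came from separate cultures, so p-values rest on the spread of 3 libraries per group, which may be technical.

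Members of the BCL2 family control the permeability of the outer mitochondrial membrane. BAX and BAK1 form pores that release cytochrome c, the anti-apoptotic proteins hold the effectors and the BH3-only proteins in check, and BH3-only proteins bind the anti-apoptotic ones or activate the effectors directly. BBC3, PMAIP1 and BAX are textbook transcriptional targets of p53, the factor that MDM2 degrades, and the title of the series places SURF2 in the MDM2 and nucleolar stress response. Here the levels of the family mRNAs were compared between siSurf2 and siSCR cells.

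The promoter windows of 4 members are shown because BBC3, PMAIP1 and BAX rose with siSurf2 while BAK1, the partner of BAX, fell. Windows searched ran from 250 bases before to 50 bases after a RefSeq start site (GRCh38.p14), and the 250 bases before it are printed, 5′ to 3′ on the strand of the gene. Capitals mark matches to the motifs searched on both strands: CACGTG (E-box), TGACGT (core of the cyclic AMP response element, CRE), GTAAACA (FOXO site) and the p53 consensus decamer. The printed stretches are BBC3 at chr19:47232668-47232917 (minus strand), PMAIP1 at chr18:59899746-59899995 (plus strand), BAX at chr19:48954625-48954874 (plus strand) and BAK1 at chr6:33580277-33580526 (minus strand).
BBC3: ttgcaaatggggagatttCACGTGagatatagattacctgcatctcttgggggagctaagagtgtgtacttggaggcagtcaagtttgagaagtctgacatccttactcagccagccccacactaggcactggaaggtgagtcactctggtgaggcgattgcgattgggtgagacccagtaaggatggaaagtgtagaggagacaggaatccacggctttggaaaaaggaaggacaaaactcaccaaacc
PMAIP1: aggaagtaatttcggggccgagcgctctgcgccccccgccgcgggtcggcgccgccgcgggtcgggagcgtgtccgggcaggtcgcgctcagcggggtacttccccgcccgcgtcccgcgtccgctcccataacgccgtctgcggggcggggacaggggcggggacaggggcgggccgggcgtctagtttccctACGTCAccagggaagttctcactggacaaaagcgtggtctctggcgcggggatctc
BAX: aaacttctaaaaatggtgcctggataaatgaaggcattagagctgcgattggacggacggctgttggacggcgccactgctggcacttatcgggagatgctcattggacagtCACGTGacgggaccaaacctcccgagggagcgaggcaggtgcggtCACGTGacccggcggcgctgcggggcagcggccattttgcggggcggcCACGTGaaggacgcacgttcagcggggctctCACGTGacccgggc
BAK1: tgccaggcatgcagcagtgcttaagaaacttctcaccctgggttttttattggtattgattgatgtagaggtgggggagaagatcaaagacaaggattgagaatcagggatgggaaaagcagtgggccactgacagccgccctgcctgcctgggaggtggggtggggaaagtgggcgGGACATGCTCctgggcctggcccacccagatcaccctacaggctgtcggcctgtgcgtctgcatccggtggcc
The BAX window held 4 E-boxes, the binding sequence of MYC, MAX and related factors, which began 138, 93, 45 and 14 bases before the start site. Of all 35116 promoter windows in the table, 7.26% held at least 1 E-box and 5 windows held 4 or more. BBC3 had 1 E-box, beginning 232 bases before its start site, and no match to the other motifs. PMAIP1 had 1 CRE core, a sequence bound by ATF and CREB factors and present in 7.98% of all windows, beginning 56 bases before its start site. BAK1 had 1 p53 decamer, beginning 73 bases before its start site, and 6.63% of all windows held one. Windows matched 8 of the 10 members by symbol, all except BCL2L2 and MCL1. BCL2L11 had a FOXO site, found in 3.42% of all windows, BID had an E-box in 2 overlapping windows of 5, and the BCL2 window and both BCL2L1 windows had no match. No match overlapped a match of another motif, and no member's match shows a bound site. The p53 search was for a single decamer and only inside these windows. The absence of a match in BBC3, PMAIP1 and BAX therefore does not show that these genes lack p53 sites.

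**Figure D1:**
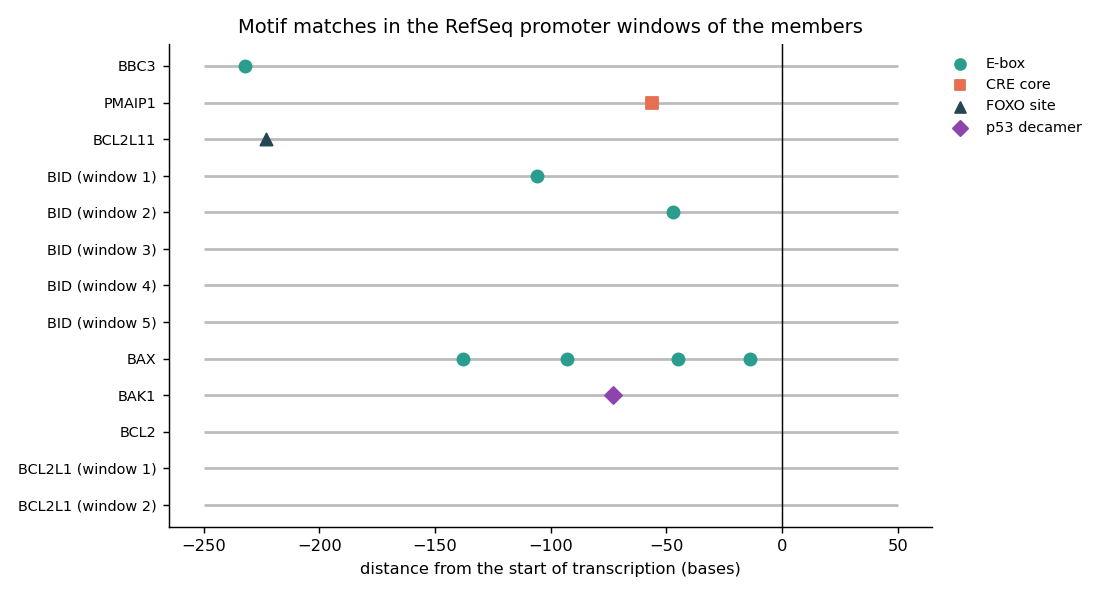
Motif matches in the promoter windows of 8 members, with the distance from the start of transcription in bases on the horizontal axis and 1 line per RefSeq window. Each symbol marks the first base of a match, and BAX is the line with 4 E-boxes.

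SURF2, the targeted gene, was 3.74, 3.56 and 3.20 CPM (counts relative to library size, scaled by TMM factors) in the siSurf2 libraries, against 36.2, 35.8 and 32.3 CPM in siSCR, 9.93-fold lower with siSurf2. Gene counts per library ran from 17123333 to 19688089, at which 1 CPM before TMM scaling is 17.1 to 19.7 counts. The members held between 115 counts (BCL2 in one library) and 5230 counts (MCL1) each. Of the mesenchymal markers VIM was at 2014 ± 56.7 CPM in siSurf2 and 1964 ± 52.6 CPM in siSCR (SD, n = 3 each), while TWIST1 was at 0 counts in every library and COL1A2 had at most 3. The 11 markers of other cell types summed to 24.1 to 28.1 CPM in siSurf2 and 21.8 to 25.6 CPM in siSCR, with CD3E at 0, and of the 5 tested EPCAM rose by 0.99 on the log2 scale while CDH1 and PECAM1 fell by 2.70 and 1.34. Their mean levels were low: EPCAM 8.75 CPM in siSurf2 and 4.41 in siSCR, CDH1 0.484 and 3.19, and PECAM1 0.657 and 1.68. The 8 mesenchymal markers summed to 2325 to 2410 CPM in siSurf2 and 2101 to 2223 CPM in siSCR, a sum that VIM dominates, and of the 6 tested PRRX1, FN1 and CDH2 rose by 1.17, 1.10 and 0.46 on the log2 scale. The part of either list in the results was not tested. Mitochondrially encoded genes took 4.70%, 2.73% and 4.74% of the gene counts in siSurf2 replicates 1, 2 and 3, against 2.91% to 3.50% in siSCR, so siSurf2 replicate 2 stood apart from the other siSurf2 libraries. It was also lowest in the long nuclear RNAs NEAT1 and MALAT1. NEAT1 was at 995.0, 635.8 and 1415 CPM in siSurf2 replicates 1, 2 and 3, and 966.9 to 1196 CPM in siSCR. MALAT1 was at 225.6, 143.2 and 324.0 CPM in siSurf2, and 198.1 to 245.9 CPM in siSCR. Without siSurf2 replicate 2 the same number of members was called in each direction as with it.

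With siSurf2, 3 of the 4 BH3-only genes and BAX rose, and 3 of the 4 anti-apoptotic genes and BAK1 fell. BCL2L11 and BCL2L1 did not pass the threshold, an adjusted p of 0.05 by edgeR's quasi-likelihood test with Benjamini-Hochberg adjustment over the 17561 genes tested. In RNA from many cells, fewer cells that express a gene and less RNA per cell cannot be told apart. All 10 members passed the filter on low counts and were tested. The background of such calls was high: 25.8% of all genes tested rose, 26.2% fell, and 52.0% were called in either direction. The median log2 fold change was 0.10 over the 10 members and 0.004 over all genes tested. It was 0.63 over the BH3-only genes and -0.48 over the anti-apoptotic genes, while the effectors, with 1 member in each direction, had a median of -0.18. The ranges of the groups did not overlap for 8 of the 10 members, against 57.3% of all genes tested. When ERCC spike-in totals set the library sizes, BBC3 and PMAIP1 were called, with adjusted p-values of 0.016 and 0.0038, and the other 6 calls were lost at adjusted p-values from 0.088 for BAK1 to 0.64 for BAX, with every direction as before.

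**Figure D2:**
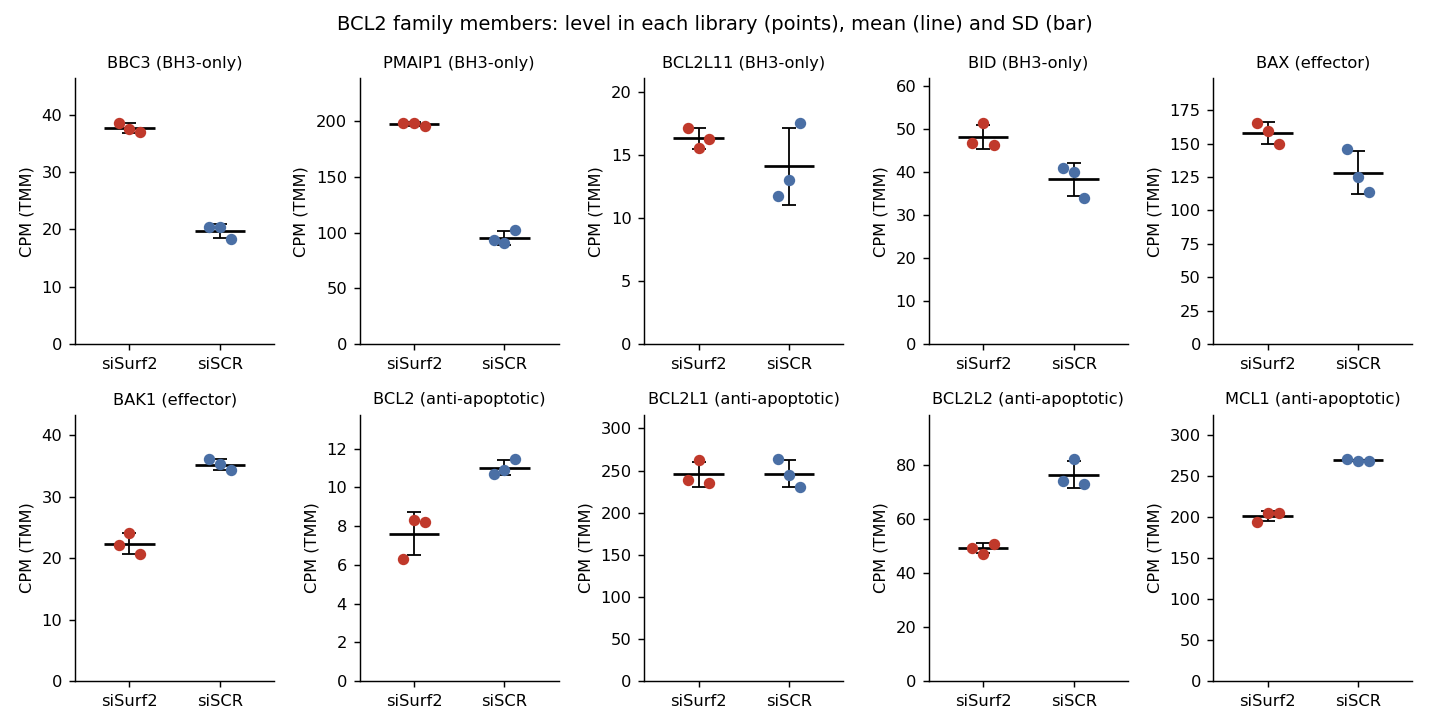
Level of each member in TMM-scaled CPM (vertical axes, from 0, a separate scale per panel) in the 3 siSurf2 libraries (red) and the 3 siSCR libraries (blue), with the mean as a line and the SD as a bar. The groups are apart for all members except BCL2L11 and BCL2L1, and the PMAIP1 libraries sit at 195.6 to 198.6 CPM with siSurf2 and 90.9 to 102.8 CPM with siSCR.

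PMAIP1 and BBC3 changed most among the 10 members. PMAIP1 encodes NOXA, a small BH3-only protein that binds MCL1 (ENSG00000141682, chromosome 18, 59899948 to 59904306, plus strand, GENCODE 29 on GRCh38). Its level was 198.6, 198.3 and 195.6 CPM in siSurf2 replicates 1, 2 and 3, against 93.1, 90.9 and 102.8 CPM in siSCR replicates 1, 2 and 3. Every siSurf2 library lay far above every siSCR library, and the siSurf2 libraries were nearly level with each other. The means were 197.5 ± 1.69 CPM in siSurf2 and 95.6 ± 6.34 CPM in siSCR (SD, n = 3 each), 2.07-fold higher with siSurf2. On the log2 scale the difference was 1.05 ± 0.05 (SE; adjusted p = 1.9e-15 by edgeR), and 4.30% of the genes tested had a higher one.

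BBC3 encodes PUMA, a BH3-only protein that binds every main anti-apoptotic member (ENSG00000105327, chromosome 19, 47220822 to 47232766, minus strand). BBC3 was at 38.6, 37.4 and 37.0 CPM in the siSurf2 libraries, against 20.5, 20.4 and 18.3 CPM in the siSCR libraries. The groups were well apart and tight within themselves. The mean was 1.91-fold higher with siSurf2, by 0.94 ± 0.07 (SE) in log2 at an adjusted p of 1.2e-11 by edgeR, and 5.51% of the genes tested had a higher one. The 2 changes were of similar size, with 95% intervals of 0.94 to 1.16 for PMAIP1 and 0.79 to 1.08 for BBC3.

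BID, which caspase-8 cleaves to carry a death receptor signal to mitochondria, rose by less (ENSG00000015475, chromosome 22, 17734138 to 17774770, minus strand). The siSurf2 libraries had 46.6, 51.4 and 46.3 CPM of BID, against 40.8, 40.01 and 33.9 CPM in siSCR. The lowest siSurf2 library was above the highest siSCR library, and the spread within each group was wider than for BBC3. BID was higher by 0.33 ± 0.07 in log2 (SE; adjusted p = 2.4e-04 by edgeR). CASP8, the gene of that protease, rose by 0.19 ± 0.06 on the log2 scale (edgeR adjusted p = 0.010), a call that was lost without siSurf2 replicate 2, at an adjusted p of 0.05.

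BCL2L11 encodes BIM, a BH3-only protein that FOXO factors induce on growth factor withdrawal (ENSG00000153094, chromosome 2, 111119378 to 111168447, plus strand). It was at 17.2, 15.5 and 16.2 CPM in the siSurf2 libraries, against 11.8, 13.0 and 17.6 CPM in the siSCR libraries. The groups overlapped: siSCR replicate 3 exceeded all siSurf2 libraries, while the other siSCR libraries lay below them. The log2 difference was 0.20 ± 0.11 (SE; 95% interval -0.03 to 0.44; adjusted p = 0.14 by edgeR). Without siSCR replicate 3 it was 0.38, with an adjusted p of 0.003, and it ran from 0.08 to 0.40 over all alternatives. Exons of MIR4435-2HG, a long RNA on the opposite strand, overlap 10.9% of the BCL2L11 exons, and whether the counting used strand is not stated in the labels or the file. MIR4435-2HG was at 63.8 ± 0.233 CPM in siSurf2 and 69.4 ± 0.370 CPM in siSCR (SD, n = 3 each; log2 fold change -0.12, edgeR adjusted p = 0.061, or 0.049 without siSCR replicate 3), and its part in the BCL2L11 counts was not tested.

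The 2 effectors changed in opposite directions. BAX, which moves from the cytosol to mitochondria when activated (ENSG00000087088, chromosome 19, 48954815 to 48961798, plus strand), was at 165.6, 159.1 and 149.4 CPM in the siSurf2 libraries, against 145.9, 124.9 and 114.1 CPM in siSCR. The gap between the groups was narrow, 149.4 CPM in the lowest siSurf2 library and 145.9 CPM in the highest siSCR library. BAX rose 1.23-fold, or by 0.30 ± 0.07 in log2 (SE; adjusted p = 0.0014 by edgeR), and 25.5% of the genes tested had a higher one.

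BAK1, the effector that resides in the outer mitochondrial membrane (ENSG00000030110, chromosome 6, 33572547 to 33580293, minus strand), had 22.2, 24.1 and 20.7 CPM in siSurf2 and 36.1, 35.4 and 34.3 CPM in siSCR. All siSurf2 libraries lay clearly below all siSCR libraries. The level was 1.58-fold lower with siSurf2, a log2 difference of -0.66 ± 0.07 (SE; adjusted p = 1.4e-08 by edgeR). Its processed pseudogene BAK1P1 had at most 7 counts in a library.

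Among the anti-apoptotic genes, BCL2L2, MCL1 and BCL2 fell and BCL2L1 did not pass the threshold. BCL2L2 encodes BCL-W (ENSG00000129473, chromosome 14, 23298790 to 23311759, plus strand). It was at 49.2, 47.1 and 50.8 CPM in the siSurf2 libraries, against 73.9, 81.9 and 73.0 CPM in the siSCR libraries. The groups were far apart, and BCL2L2 was 1.56-fold lower with siSurf2, or -0.64 ± 0.06 in log2 (SE; adjusted p = 6.5e-10 by edgeR). The read-through gene BCL2L2-PABPN1 shares 19.4% of the BCL2L2 exons and had 16 to 36 counts per library, so reads from the shared exons may have been split or dropped.

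MCL1, a short-lived protein that NOXA targets for degradation (ENSG00000143384, chromosome 1, 150574551 to 150579738, minus strand), was at 193.4, 204.8 and 204.5 CPM in siSurf2, against 269.9, 268.5 and 268.5 CPM in siSCR. The siSCR libraries were almost identical, and each siSurf2 library was well below them. MCL1 was 1.34-fold lower with siSurf2, or -0.42 ± 0.05 in log2 (SE; adjusted p = 1.9e-08 by edgeR). BCL2, the founding member of the family (ENSG00000171791, chromosome 18, 63123346 to 63320128, minus strand), was the member with the fewest counts, at 6.32, 8.31 and 8.20 CPM in siSurf2 and 10.7, 10.9 and 11.5 CPM in siSCR. The groups did not overlap, with siSurf2 replicate 1 the lowest library. BCL2 fell by 0.53 ± 0.12 on the log2 scale (SE; adjusted p = 4.5e-04 by edgeR), with a wide 95% interval of -0.78 to -0.29.

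BCL2L1 encodes BCL-XL (ENSG00000171552, chromosome 20, 31664452 to 31723989, minus strand) and had 239.2, 262.6 and 234.9 CPM in siSurf2, against 263.2, 244.5 and 231.0 CPM in siSCR. The ranges of the 2 groups overlapped almost wholly. The 95% interval of its log2 fold change ran from -0.11 to 0.11 (edgeR adjusted p = 0.96), and the sign flipped between scalings, from -0.04 with spike-in totals to 0.04 with upper-quartile factors. ABALON, a long RNA on the opposite strand, overlaps 43.0% of the BCL2L1 exons, and without a stated strand setting the reads of the 2 genes cannot be told apart. ABALON was at 9.43 ± 0.943 CPM in siSurf2 and 7.46 ± 0.599 CPM in siSCR (SD, n = 3 each; log2 fold change 0.34, edgeR adjusted p = 0.021), a call that was lost on leaving out any of 4 of the 6 libraries (siSurf2 replicate 1 or 3, siSCR replicate 1 or 3), with adjusted p-values from 0.062 to 0.092. With all 6 libraries it was also lost by DESeq2 (adjusted p = 0.058) and by edgeR with spike-in totals (adjusted p = 0.64). Counts per gene also pool splice forms, so the long and short forms of BCL-X and MCL1, which act in opposite ways, were not separated.

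**Figure D3:**
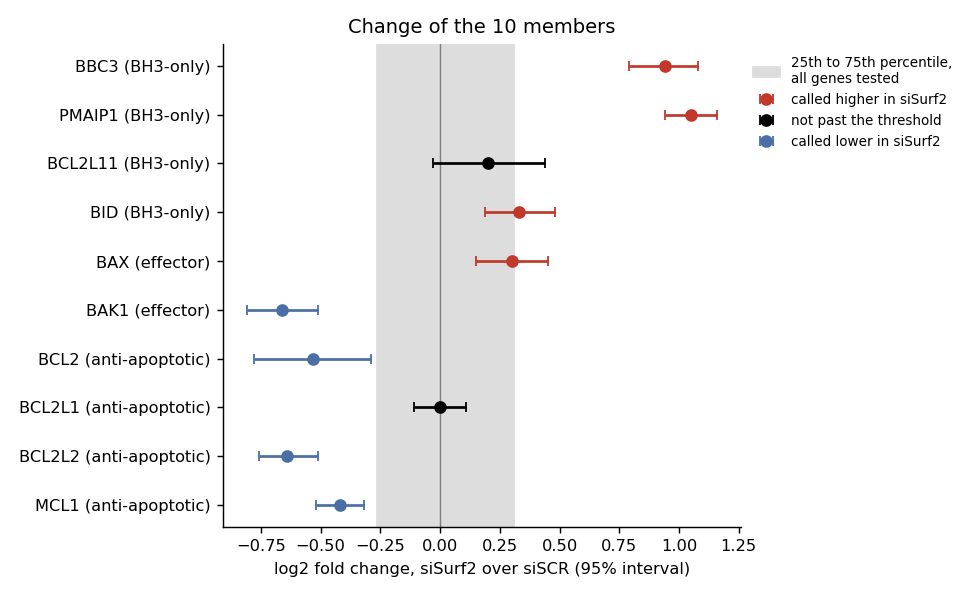
Log2 fold change of siSurf2 over siSCR (horizontal axis) with its 95% interval for each member, red for called higher, blue for called lower and black for not past the threshold. The grey band runs from the 25th to the 75th percentile of all genes tested (-0.27 to 0.31), and PMAIP1 and BBC3 lie to its right while the whole intervals of BAK1, BCL2, BCL2L2 and MCL1 lie to its left.

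To compare levels between members, CPM were divided by the length of each gene's merged exons in kb. With siSurf2 the order by mean level was PMAIP1, BCL2L1, BAX, MCL1, BBC3, BCL2L2, BID, BAK1, BCL2L11 and BCL2. With siSCR it was BCL2L1, MCL1, BAX, PMAIP1, BCL2L2, BAK1, BID, BBC3, BCL2L11 and BCL2. PMAIP1 therefore ranked 1 in siSurf2, at 88.4 ± 0.755 CPM per kb, and 4 in siSCR, at 42.8 ± 2.83 CPM per kb (SD, n = 3 each). Merged exons cover every annotated transcript of a gene, so the order depends on this choice of length. The BCL2L1 length includes the 43.0% of its exons that ABALON overlaps. Whether reads there were counted for BCL2L1 is not known, so its level per kb and the sums that hold it carry this limit. By mean CPM without length, PMAIP1 (197.5) lay below BCL2L1 (245.6) and MCL1 (200.9) in siSurf2. BBC3 ranked 5 in siSurf2 and 8 in siSCR. Neighbours whose ranges overlapped were BBC3 and BCL2L2, BCL2L2 and BID, and BID and BAK1 in siSurf2, and BAX and PMAIP1 in siSCR.

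Summed per kb, the BH3-only genes reached 114.1, 114.4 and 112.0 CPM per kb in the siSurf2 libraries, against 59.0, 58.0 and 62.0 CPM per kb in the siSCR libraries. The difference was carried mostly by PMAIP1, which made up 77.9% ± 0.283 of that sum in siSurf2 and 71.6% ± 2.25 in siSCR (SD, n = 3 each). The sum of BAX and BAK1 was 74.0, 72.4 and 67.1 CPM per kb in siSurf2 and 72.7, 64.3 and 59.6 CPM per kb in siSCR. Those ranges overlapped, although the share of BAX in the sum was 85.8% ± 0.783 in siSurf2 and 75.6% ± 1.83 in siSCR. The anti-apoptotic genes summed to 128.7, 138.0 and 130.5 CPM per kb in siSurf2, against 159.7, 155.7 and 149.5 CPM per kb in siSCR. All siSurf2 sums were below all siSCR sums. BCL2L1 made up 55.9% ± 1.54 of the anti-apoptotic sum in siSurf2 and 47.9% ± 1.61 in siSCR, and MCL1 34.7% ± 0.997 in siSurf2 and 39.7% ± 1.23 in siSCR.

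The ratio of the pro-apoptotic sum (BH3-only and effectors) to the anti-apoptotic sum was 1.46, 1.35 and 1.37 in the siSurf2 libraries, against 0.825, 0.786 and 0.813 in the siSCR libraries. The siSurf2 ratios were all above the siSCR ratios, a log2 difference of 0.79. Without PMAIP1, an alternative chosen after seeing the data, the ratio was 0.771, 0.711 and 0.702 in siSurf2 and 0.564, 0.524 and 0.506 in siSCR, a log2 difference of 0.45, and no siSurf2 ratio exceeded 1. Whether a ratio here lies above or below 1 depends on the exon lengths by which CPM were divided. The ratio of PMAIP1 to MCL1, whose proteins bind each other, was 2.01, 1.89 and 1.87 in siSurf2 and 0.675, 0.662 and 0.749 in siSCR. These sums cover the 10 members and no other family gene, weigh mRNAs alone, carry no test because the members were chosen with results known, and say nothing of protein.

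**Figure D4:**
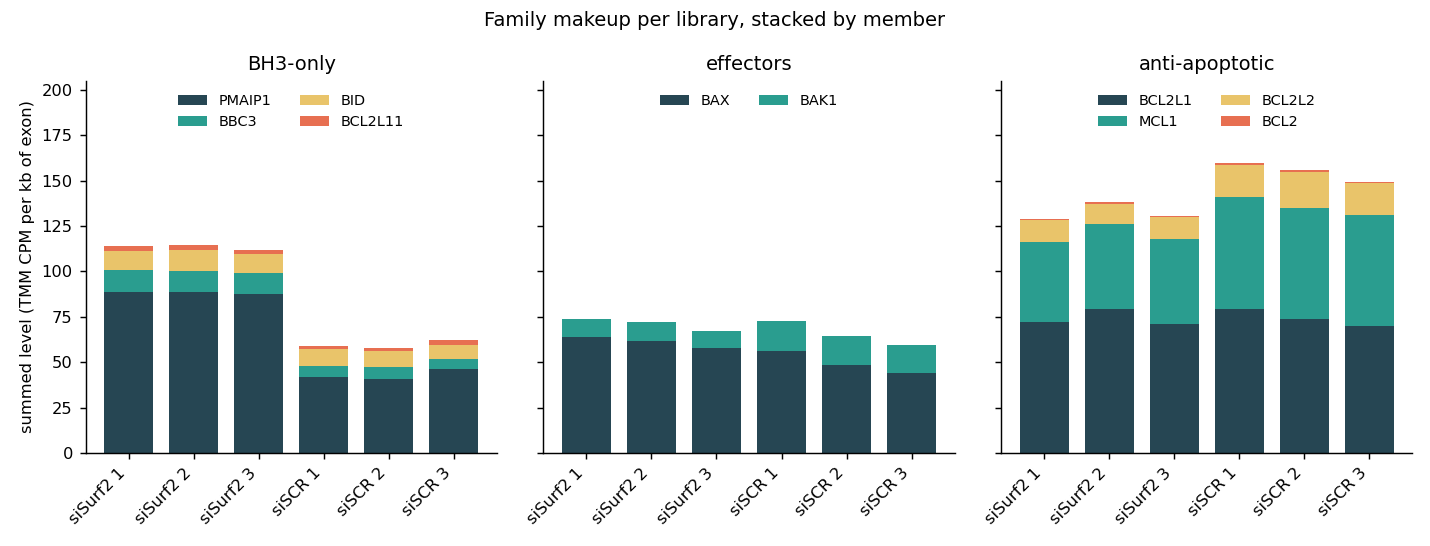
Summed level of the BH3-only genes, the effectors and the anti-apoptotic genes (vertical axis, TMM-scaled CPM per kb of exon, from 0) in each of the 6 libraries, stacked by member. The BH3-only stacks reach 112.0 to 114.4 in siSurf2 and 58.0 to 62.0 in siSCR, and the anti-apoptotic stacks 128.7 to 138.0 in siSurf2 and 149.5 to 159.7 in siSCR.

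The other genes of the pathway went both ways. Of 54 tested genes on 6 lists around the family, 18 rose, 17 fell and 19 missed the threshold, where 25.8% of all genes tested rose and 26.2% fell, with list medians between -0.11 and 0.08. Of 10 tested BCL2-related genes outside the 10 members, 5 rose, 4 fell and 1 did not pass (median log2 fold change 0.01). BMF, a BH3-only gene that senses loss of attachment, was at 27.4, 21.4 and 25.2 CPM in siSurf2, against 6.61, 5.40 and 10.9 CPM in siSCR. The siSurf2 libraries were all far above the siSCR libraries, although the siSCR libraries spread widely. The change of BMF was 1.68 ± 0.24 in log2 (SE; adjusted p = 0.0012 by edgeR), larger than that of any of the 10 members, and it is named here after its values were seen. BIK, another BH3-only gene, was at 6.21, 6.40 and 5.70 CPM in siSurf2 and 3.63, 3.16 and 2.62 CPM in siSCR, or 0.97 ± 0.16 higher in log2 (adjusted p = 1.3e-05 by edgeR).

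The BH3-only genes were not uniform, since HRK fell by 0.68 ± 0.15 on the log2 scale (edgeR adjusted p = 4.1e-04) to 3.63 ± 0.199 CPM in siSurf2, against 5.83 ± 0.158 CPM in siSCR. BAD, a BH3-only gene controlled by phosphorylation, rose by 0.18 ± 0.06. BOK, a relative of BAX and BAK1, fell to 64.7 ± 5.58 CPM in siSurf2, against 92.7 ± 7.41 CPM in siSCR (log2 fold change -0.52 ± 0.07, edgeR adjusted p = 2.6e-07). BNIP3L and BCL2L13, receptors of mitochondrial autophagy, rose by 0.38 ± 0.06 and 0.31 ± 0.06 on the log2 scale. BCL2L12 fell by 0.27 ± 0.06. BNIP3 fell by 0.17 ± 0.06 (adjusted p = 0.029), a call that 9 of 18 alternatives did not keep, with adjusted p-values up to 0.76. BCL2A1, BCL2L10 and BCL2L15 had at most 8 counts in a library and were not tested.

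Downstream of the pore, 2 of 11 genes of mitochondrial pore formation and release rose, 5 fell and 4 did not pass (median log2 fold change -0.08). Of all genes tested, 25.8% rose and 26.2% fell. CYCS, cytochrome c itself, fell to 231.9 ± 6.11 CPM in siSurf2, against 323.2 ± 6.41 CPM in siSCR (log2 fold change -0.48 ± 0.05, edgeR adjusted p = 1.5e-09). The outer membrane channel gene VDAC3 fell by 0.27 ± 0.05, and MTCH2, a membrane receptor for cleaved BID, by 0.18 ± 0.05. OPA1, which shapes the inner membrane, rose by 0.27 ± 0.05, and DNM1L, a fission enzyme, by 0.13 ± 0.05. The DNM1L call was lost without siSurf2 replicate 2 (adjusted p = 0.08) or siSCR replicate 1 (adjusted p = 0.057).

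Of 7 genes of the apoptosome and caspases, 3 rose, 3 fell and 1 did not pass (median -0.11), where 52.0% of all genes tested were called in either direction. APAF1, the scaffold that cytochrome c activates, fell by 0.39 ± 0.09 on the log2 scale (edgeR adjusted p = 4.0e-04), while CASP9, the protease it recruits, rose by 0.58 ± 0.14 (adjusted p = 0.0010) to 7.30 ± 0.831 CPM in siSurf2, against 4.87 ± 0.366 CPM in siSCR. CASP6, an effector caspase, rose by 0.64 ± 0.08. CASP2, an initiator caspase, fell by 0.44 ± 0.06. Among 6 inhibitors of apoptosis, 1 rose, 2 fell and 3 did not pass (median 0.03). BIRC3 was at 35.5, 40.8 and 38.4 CPM in siSurf2, against 77.7, 88.5 and 84.2 CPM in siSCR, a log2 fold change of -1.13 ± 0.06 (edgeR adjusted p = 2.0e-14). XIAP, a direct inhibitor of caspases, rose by 0.33 ± 0.05, and BIRC5, survivin, which also acts in mitosis, fell by 0.40 ± 0.05.

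Of 10 genes that act on the turnover or location of member proteins, 4 rose and 6 did not pass (median 0.08). Here too the background was 25.8% of all genes tested higher and 26.2% lower. FBXW7, part of a ubiquitin ligase that directs MCL1 to degradation, and USP9X, a deubiquitinase that stabilises MCL1, both rose, by 0.50 ± 0.08 and 0.37 ± 0.05 on the log2 scale. TMBIM6, a suppressor of BAX-induced death, rose by 0.28 ± 0.05. Of 10 transcription factors known to act on members, 3 rose, 3 fell and 4 did not pass (median -0.03). FOXO1, an inducer of BCL2L11 and BBC3, rose to 8.48 ± 0.971 CPM in siSurf2, against 4.34 ± 0.851 CPM in siSCR (log2 fold change 0.96 ± 0.15, edgeR adjusted p = 3.8e-06). DDIT3, the stress factor CHOP, rose by 0.53 ± 0.11. E2F1 fell by 0.76 ± 0.06, MYC by 0.26 ± 0.05 and STAT3 by 0.28 ± 0.05.

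**Figure D5:**
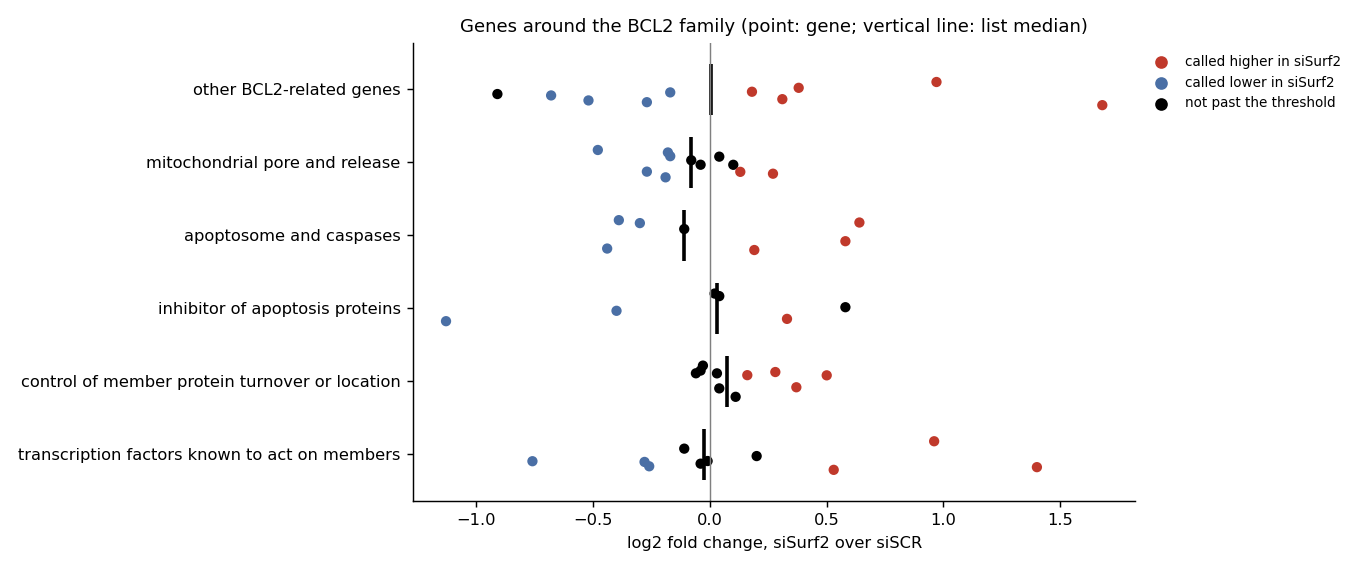
Log2 fold change of siSurf2 over siSCR (horizontal axis) for the 54 tested genes on 6 lists around the family, with 1 point per gene coloured by its call and a vertical line at each list's median. Genes lie on both sides of 0 in every list, and the medians stay between -0.11 and 0.08.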

How the data were processed

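The authors deposited 1 table of raw counts, not normalized, for 58051 genes and 92 ERCC spike-in sequences. Per the submitters' processing notes, the build was GRCh38 and fastp 0.23.1 and STAR 2.5.2b were among the tools. The counter, its annotation and its strand setting were not given in the sources used here. Spike-ins (1.12% to 1.72% of all counts) were left out of the library sizes. Symbols came from a gene name table (56948 genes) and GENCODE 29 (499), and 604 genes stayed unnamed. Coordinates and exon lengths are GENCODE 29, and promoter windows are RefSeq, GRCh38.p14.

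With edgeR 4.0.16 in R 4.3.3, genes were kept by filterByExpr at a count of 10 and a total of 15, scaled with TMM factors and tested with the quasi-likelihood F-test (robust, group only). Standard errors are the absolute unshrunken log2 fold change divided by the square root of F, with 95% intervals from the same fit.

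The members, gene lists and motifs were chosen with earlier results of these data known. Named were SURF2, all members and, from each list, up to 3 genes per direction with the smallest adjusted p. BMF, BAD and BNIP3 were named after their values were seen. Some genes taken by this rule are not reported here. Other settings tried included RLE, upper-quartile, no and spike-in scaling, other filters, DESeq2 1.42.0, limma-voom (limma 3.58.1), a replicate block, thinning and leaving out libraries.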

Additional observations from a re-analysis of the deposited data

How the results depend on the processing

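Over 17 of 18 alternatives, 4 or 5 of the members were called higher and 4 lower, and no called member changed direction. The fifth call was BCL2L11, at 0.38 (adjusted p = 0.003) without siSCR replicate 3 and 0.40 (adjusted p = 0.0062) without both libraries numbered 3. The log2 fold change of BCL2L1, not called in any setting, changed sign to 0.04 with upper-quartile factors, 0.02 without factors, 0.02 without a filter, 0.00 with a filter of 1 CPM, and ran from -0.06 to 0.04 on leaving out 1 library. When spike-in totals set the library sizes, 2 members were called higher (BBC3 and PMAIP1) and 0 lower by edgeR (at an unadjusted p under 0.05, 2 higher and 2 lower), although every log2 fold change of a called member stayed within 0.06 of its value (for example 0.28 for BAX, -0.71 for BAK1 and 0.99 for PMAIP1). In that setting 802 genes were called higher and 825 lower, against 4535 and 4596, and 4 genes of the pathway lists were called higher and 2 lower. Spike-ins held 1.27% to 1.72% of counts in siSurf2 and 1.12% to 1.72% in siSCR, and the cause of the lost calls was not tested.

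Leaving out 1 library gave 4082 to 4292 genes called higher and 3878 to 4574 lower, and 16 to 19 pathway genes called higher and 15 to 18 lower. Of 30 genes named from these lists, 25 lost their call with spike-in scaling, 3 (DNM1L, CASP8 and BNIP3) lost it in another setting, and none changed direction. The log2 change of the ratio of pro- to anti-apoptotic sums was 0.79, 0.45 without PMAIP1 alone (chosen after seeing the data), 0.70 without PMAIP1 and BCL2L1, which bear on the ratio in opposite ways, and 0.75 to 0.81 on leaving out 1 library. Deviations of gene levels showed no pairing by replicate number (correlations of same-numbered libraries were 0.005, -0.120 and -0.028). The spike-in share, however, was lowest in replicate 3 of both groups, at 1.27% in siSurf2 and 1.12% in siSCR. What same-numbered libraries share is not stated in the labels and was not tested. The replicate block called 4478 genes higher and 4550 lower and left each member's call as it was. Depth limits BCL2 most among the members, at 115 to 223 counts per library.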
